A study of Mus musculus with 12 samples.

Results

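The enzymes and transporters that carry glucose through glycolysis, the pentose phosphate pathway and glycogen were examined in sorted blood neutrophils of mice that had received a bone marrow transplant. The 36 genes were chosen by name from the deposited table, which lists 11494 genes, and comprise 19 glycolysis genes, 7 pentose phosphate genes, 6 glycogen genes and 4 genes of the hypoxia response. All 36 were listed and all 36 passed the filter on low values. The Control group (6 libraries) is labelled Control BMT with the genotype Control, and the LOY group (6 libraries) is labelled LOY BMT with the genotype LOY, for loss of the Y chromosome. All 12 libraries carry the treatment label Control, and every sample held 10000 sorted Ly6G+CD115-RFP+ cells from blood. The labels give no strain, age or time after transplant, and they do not say how the Y chromosome was lost, what the RFP marks, or that each library came from another mouse, so a p-value here reflects only how much these libraries varied, which may be technical. The study as a whole concerns loss of Y in blood-forming cells and fibrosis and failure of the heart. The comparison here asks whether transcripts for sugar use differed between the 2 groups of neutrophils.

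Glycolysis splits glucose into pyruvate in the cytosol and yields ATP without oxygen. Neutrophils have few mitochondria and draw most of their ATP from it, exporting the product as lactate. The pentose phosphate pathway branches off at glucose 6-phosphate and makes NADPH, which the neutrophil oxidase consumes to form superoxide. Glycogen is the cell's own store of glucose, from which phosphorylase releases glucose 1-phosphate. HIF-1, a transcription factor held down by oxygen-dependent prolyl hydroxylases, switches on many glycolysis genes when oxygen is low.

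None of the 36 genes passed the test of LOY against Control. The test was limma on log2(value + 1) over 9742 genes, with Benjamini-Hochberg adjustment over all of them, and the lowest adjusted p among the members was 0.81. Of all tested genes 2 passed an adjusted p of 0.05, both higher in LOY, which is 0.0205%. Thus the Y-linked genes Eif2s3y and Ddx3y were not called, although both were lower in every LOY library than in any Control library. Ddx3y had at least 650 normalized reads in each Control library, 366 in LOY 4 and 0 to 32.0 in the other LOY libraries. A gene that was not called may therefore still differ between the groups. At an unadjusted p under 0.05 there were 0 members, against 6.04% of all tested genes. The quasi-likelihood test of edgeR on reads recovered from the table called 0 members at the adjusted threshold, against 0% of all genes, and 0 at an unadjusted p under 0.05, against 2.94%. DESeq2 called 0 members and 54 genes in all (0.493% of 10963). The authors' deposited table calls 54 genes and none of the members (0.493% of 10960). Its fold changes and unadjusted p-values for the members equal those of DESeq2 here, so it is not a separate source. No member had groups that did not overlap, against 0.287% of tested genes. The count of all genes called by limma moved between 0 and 17 when single libraries were left out, reaching 17 without Control 6, 7 without Control 18 and 5 without Control 12. It was 1 without Control 1 or Control 17, and 0 without Control 2 or without any 1 of LOY 5, 9, 10, 15 and 19. The count of members called was 0 in each of these fits.

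The fold changes of most members were small and tightly bounded. A log2 fold change here is LOY over Control on the log2(value + 1) scale. The sign was positive in 15 members and negative in 21, and the median was -0.027, beside 0.14 over all tested genes (-0.0098 in edgeR). The 95% interval lay within a 2-fold change in either direction for 26 of the 36, against 30.7% of all tested genes. The median standard error was 0.19 for members and 0.56 over all tested genes. Most members were abundant, and 31 of the 36 had a mean of 500 or more normalized reads. Together the members made up between 2.06% and 2.43% of the normalized reads of a library. In bulk samples such as these, fewer cells of a type and less RNA per cell cannot be told apart.

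**Figure D1:**
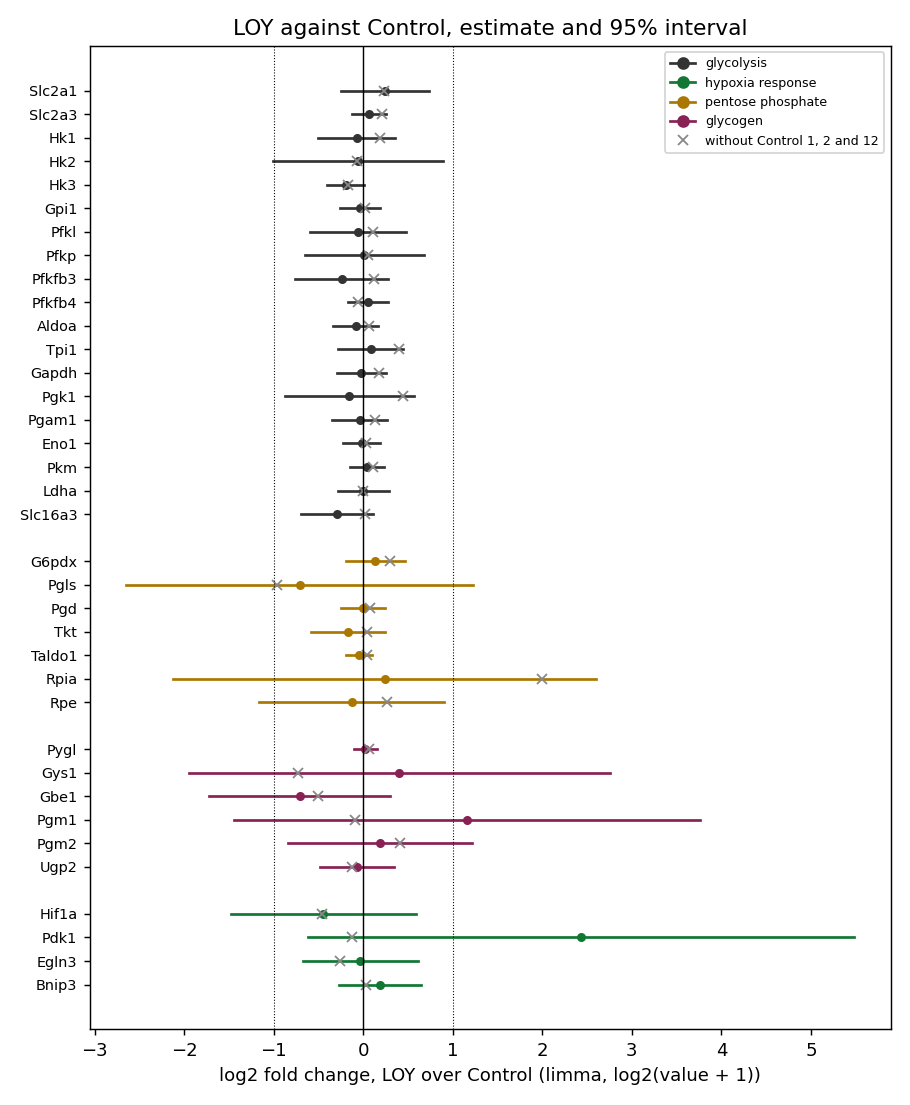
Log2 fold change of LOY over Control (x axis) for each of the 36 genes (y axis), by pathway. Points are limma estimates, lines are 95% intervals, dotted lines mark a 2-fold change, and grey crosses are estimates without Control 1, 2 and 12; all 36 intervals include 0, and the widest belong to Pdk1, Pgm1, Gys1 and Rpia.

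The libraries held between 13743581 and 19616066 reads on listed genes. Control 1, 2 and 12 stood apart, with 20.5%, 21.7% and 17.3% of listed genes at 0 against 6.59% to 11.6% in the other libraries, and the plot of fold changes shows the estimate of every member without them. The Y-linked gene Eif2s3y had 1478 to 3170.5 normalized reads in Control and 0 to 74.6 in 5 of the LOY libraries, but 986 in LOY 4. All 12 neutrophil markers looked for were listed by symbol, but the identifier of the row named Itgam is named Gm49368 in GENCODE vM21. The list was led by S100a8 and S100a9, the subunits of calprotectin. Their mean values were 765826 and 579594 normalized reads in Control and 612705 and 481767 in LOY. Of the 12 neutrophil markers tested 4 had a positive difference and 8 a negative one. Their median log2 difference was -0.21, or 0.070 without Control 1, 2 and 12. Of the monocyte markers Csf1r, which encodes the CD115 that the sort selected against, had a mean of 9279 normalized reads in Control and 12442 in LOY. Of the 5 monocyte markers tested 3 had a positive difference and 2 a negative one. Those 2 were Ly6c2 (means of 2402 in Control and 1499 in LOY) and Adgre1 (2552 and 2129). The monocyte markers summed to 777 to 1434 per 1000000 normalized reads in Control and 916 to 1350 in LOY, which overlap. Ccr2, Cx3cr1, Ms4a6c and Fn1 were not analysed here. The T and NK cell markers summed to at most 28.3 and the eosinophil and basophil markers to at most 108, the platelet markers to at most 132 and the B cell markers to at most 539.6 per 1000000 normalized reads in any library. Limma called 0 of the markers it tested. The authors' deposited table calls 2 monocyte markers that were under the filter here, F13a1 and Irf8, named after their values were seen. Both were listed at 0 in all 6 Control libraries. F13a1 had 79.5 normalized reads in LOY 5 and 138 in LOY 15 and was at 0 in the other LOY libraries, and Irf8 had 0 to 228 in LOY (median 48.8).

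Levels between genes are compared per length, as normalized reads per kilobase of exon per 1000000 normalized reads, averaged over the 12 libraries. On this scale the order was led by Taldo1, the transaldolase of the pentose phosphate pathway, at 1538. The pyruvate kinase gene Pkm followed at 662 and the aldolase gene Aldoa at 535. Taldo1 lay above every other member in every library, whereas the ranges of Pkm and Aldoa overlapped. Eno1 (322), Gapdh (309.6), Pygl (272) and Ldha (265) came next, with ranges that overlapped one another. The least abundant were Pgls (5.33), Pdk1 (1.03) and Rpia (0.379). The steps of glycolysis were unevenly represented: Tpi1, Pgk1 and Pgam1 lay at 49.2, 46.3 and 44.7, well under the enzymes on either side of them in the pathway. The phosphofructokinase genes Pfkl and Pfkp lay lower still, at 9.79 and 7.36, between Gpi1 (172) and Aldoa in the pathway. Exon length is the union over all annotated transcripts, so a gene with long rarely used exons is placed too low.

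**Figure D2:**
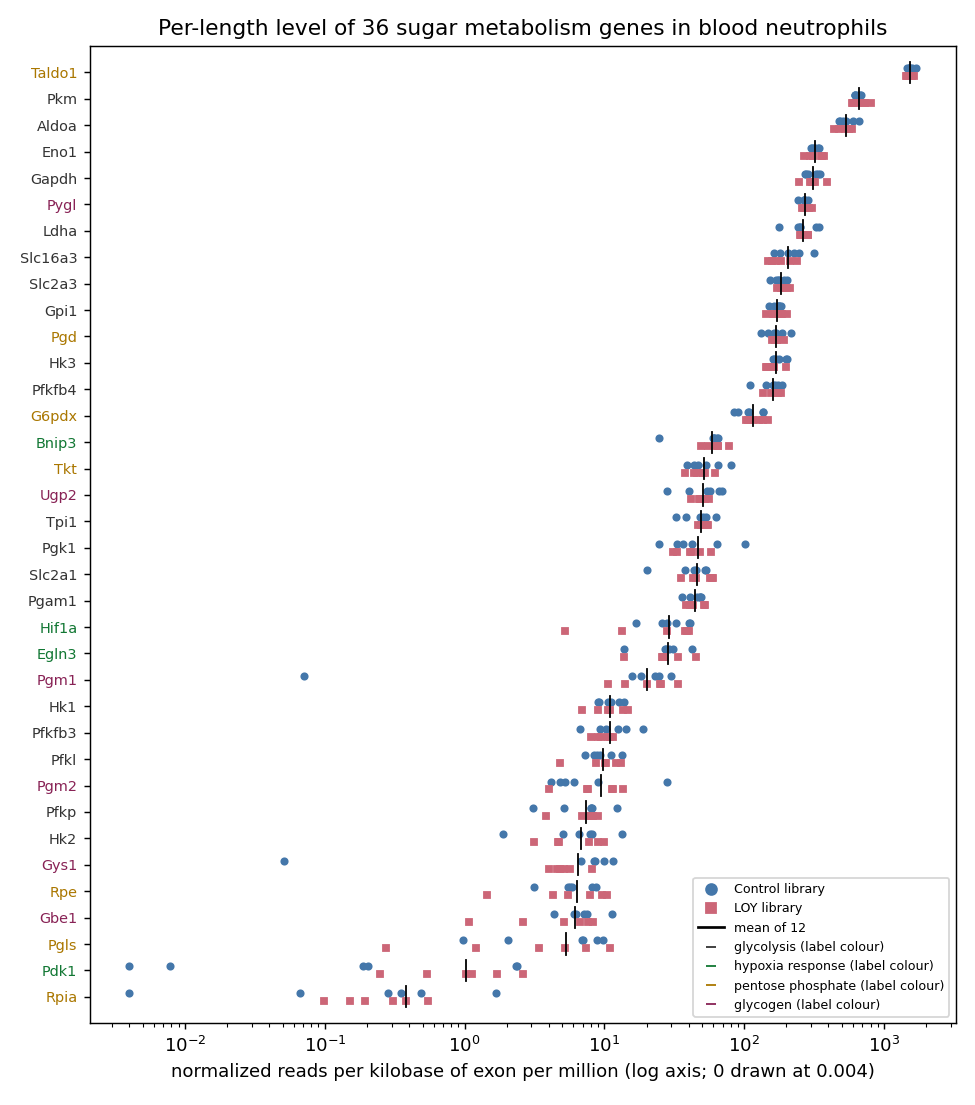
Per-length level (x axis, normalized reads per kilobase of exon per 1000000 normalized reads, log scale) of the 36 genes in each library, ordered by the mean of 12 (black ticks). Circles are Control and squares are LOY libraries; the groups overlap for every gene, and single libraries stand far to the left for Pgm1, Gys1, Pdk1 and Rpia.

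Glucose entry was measured through Slc2a1 and Slc2a3, which encode the facilitative transporters GLUT1 and GLUT3. Slc2a3 lay between 17706 and 24771 normalized reads in the Control libraries (median 21032) and between 20918 and 25301 in the LOY libraries (median 21970.1). The ranges overlapped, and the log2 difference was 0.066 ± 0.087 (SE; adjusted p = 0.88). Slc2a1 lay between 1249 and 3237 normalized reads in the Control libraries (median 2512) and between 2124 and 3371 in the LOY libraries (median 2869), with the lowest value in Control 1. Its log2 difference was 0.24 ± 0.23 (SE; adjusted p = 0.85). Within the glucose transporters listed, Slc2a3 held 43.4% and Slc2a6, a transporter of the lysosomal membrane, held 45.8% of reads per kilobase, leaving 10.8% for Slc2a1. The order of Slc2a3 and Slc2a6 rests on the union exon lengths, 7245 and 3211 bases. By normalized reads alone Slc2a3 was the higher (Control means of 21558 and 10519), so which of them was the larger part is uncertain.

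Hexokinases trap glucose as glucose 6-phosphate, and the family was dominated by Hk3, the isoform typical of myeloid cells (chr13:55005985-55021385, minus strand, build GRCm38). Hk3 made up 90.4% of hexokinase reads per kilobase, with a range of 85.5% to 93.2% in Control and 86.0% to 91.8% in LOY. Hk3 lay between 10005 and 12969 normalized reads in the Control libraries (median 10358) and between 8285 and 11561 in the LOY libraries (median 9574). Of the LOY libraries 5 lay below every Control library, and LOY 19, at 11561, was the third highest of the 12. Hk3 had the smallest unadjusted p of the members (0.062), with a log2 difference of -0.19 ± 0.095 (SE; adjusted p = 0.81). Without LOY 19 the difference was -0.25 ± 0.089 with an unadjusted p of 0.016 and an adjusted p of 0.82. Hk1, the hexokinase found in most tissues, had 1221, 1518 and 2069 normalized reads (lowest, median, highest) in Control and 981, 1542 and 2005 in LOY, a difference of -0.073 ± 0.20 (SE; adjusted p = 0.95). Hk2, the isoform induced by insulin and hypoxia, spread from 197 in Control 1 to 1399 in Control 2 and gave -0.057 ± 0.44 (SE; adjusted p = 0.98).

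The next steps commit the sugar to glycolysis. Gpi1, which turns glucose 6-phosphate into fructose 6-phosphate, lay between 16479 and 20736 normalized reads in the Control libraries (median 18092) and between 14485 and 22287 in the LOY libraries (median 18217). Its log2 difference was -0.035 ± 0.10 (SE; adjusted p = 0.95). Phosphofructokinase, the main control point, was split between the liver-type gene Pfkl (57.4% of family reads per kilobase) and the platelet-type gene Pfkp (42.6%). Pfkm, the muscle type, was not analysed here. This order rests on the union exon lengths, 6675 bases for Pfkl and 13401 for Pfkp. By normalized reads alone Pfkp was the higher on average, so which of them was the larger part is uncertain. The split was unsteady, since the Pfkp share ran over 21.8% to 62.9% in Control and 30.5% to 65.1% in LOY. Pfkl had 857, 967 and 1516 normalized reads (lowest, median, highest) in Control and 506, 1108 and 1443 in LOY, a difference of -0.056 ± 0.25 (SE; adjusted p = 0.97). Pfkp had 726, 1722 and 2913 normalized reads (lowest, median, highest) in Control and 876, 1741 and 1896 in LOY, a difference of 0.012 ± 0.31 (SE; adjusted p = 0.99). Neither gene separated the groups. The bifunctional enzymes that set fructose 2,6-bisphosphate, the activator of phosphofructokinase, were nearly all Pfkfb4 (93.3%), with 6.56% for Pfkfb3. Pfkfb4 lay between 9462 and 14488 normalized reads in the Control libraries (median 13079) and between 11024 and 14388 in the LOY libraries (median 13257), a difference of 0.054 ± 0.10 (SE; adjusted p = 0.93). Pfkfb3 was highest in Control 1 (2515 normalized reads) and gave -0.24 ± 0.24 (SE; adjusted p = 0.86).

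**Figure D3:**
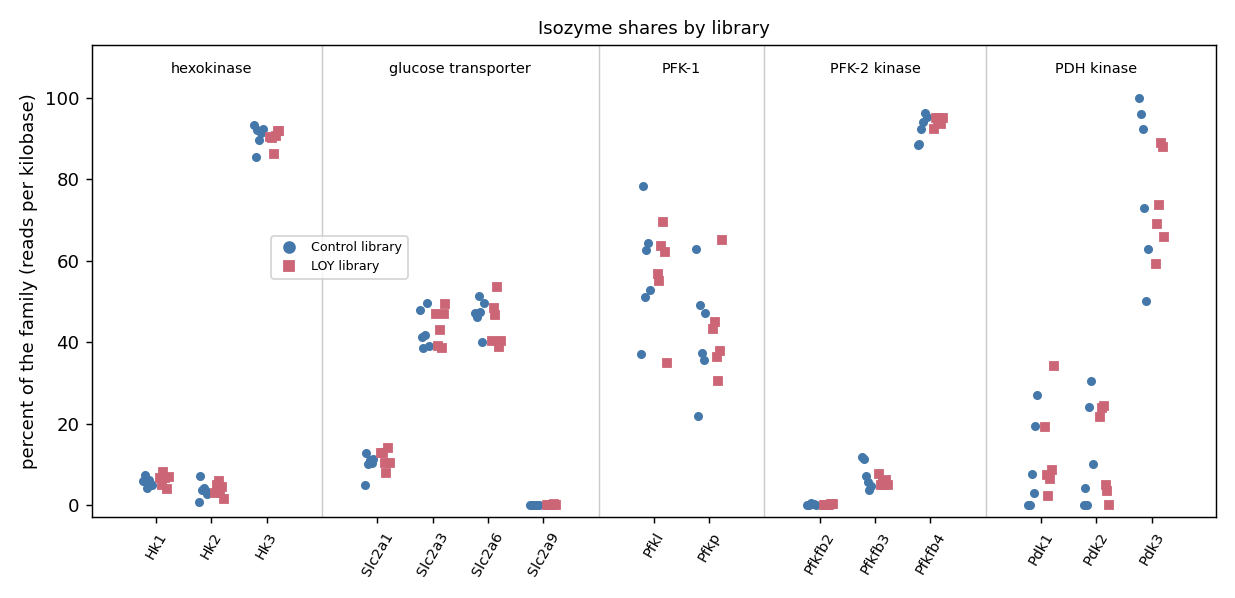
Share of each gene in the reads per kilobase of its enzyme family (y axis, percent) in each library, for hexokinases, glucose transporters, phosphofructokinases (PFK-1), 6-phosphofructo-2-kinases (PFK-2 kinase) and pyruvate dehydrogenase (PDH) kinases. Circles are Control and squares are LOY libraries; Hk3 and Pfkfb4 hold 85.5% or more in every library, while Pfkl and Pfkp trade places between libraries of both groups.

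The lower part of glycolysis, from aldolase to pyruvate kinase, was abundant, and no gene of it differed beyond the spread of the libraries. Aldoa, which splits fructose 1,6-bisphosphate, lay between 22505 and 33989 normalized reads in the Control libraries (median 24659.8) and between 20306 and 29579.8 in the LOY libraries (median 24869). The difference was -0.086 ± 0.11 (SE; adjusted p = 0.89). Tpi1, triose phosphate isomerase, had 1429.7, 2302 and 2923 normalized reads (lowest, median, highest) in Control and 2043, 2320.4 and 2439.9 in LOY, and the difference was 0.085 ± 0.17 (SE; adjusted p = 0.93). Gapdh, which makes the first NADH of the pathway, lay between 17950.1 and 25173 normalized reads in the Control libraries (median 21242) and between 16124 and 27849.6 in the LOY libraries (median 20356). Its difference was -0.020 ± 0.13 (SE; adjusted p = 0.98), with a 95% interval of -0.30 to 0.26. Pgk1 and Pgam1 encode the kinase and mutase that follow. Pgk1 was widely spread, from 881 in Control 6 to 3998 in Control 1, and gave -0.15 ± 0.33 (SE; adjusted p = 0.94), or 0.44 without Control 1, 2 and 12. Pgam1 had 1132, 1534 and 1714 normalized reads (lowest, median, highest) in Control and 1255, 1369 and 1740.4 in LOY, a difference of -0.037 ± 0.14 (SE; adjusted p = 0.96). Both mid-pathway genes overlapped between the groups. Eno1, enolase, lay between 25926 and 31718 normalized reads in the Control libraries (median 28765) and between 22638 and 34413 in the LOY libraries (median 28515). The difference was -0.018 ± 0.10 (SE; adjusted p = 0.97). Pkm, pyruvate kinase, lay between 49227 and 56989.5 normalized reads in the Control libraries (median 54499) and between 46837 and 68854 in the LOY libraries (median 54529). LOY 10 was the highest and LOY 19 the lowest of the 12 libraries for Pkm, and also for Eno1 and Gapdh, so the extremes came from 1 group. The difference for Pkm was 0.041 ± 0.089 (SE; adjusted p = 0.94), with a 95% interval of -0.15 to 0.23.

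Lactate formation and export end the pathway. Ldha, the lactate dehydrogenase subunit that favours lactate, made up 99.8% of its family's reads per kilobase. Ldha lay between 10332 and 19109.8 normalized reads in the Control libraries (median 13875) and between 12817 and 16287 in the LOY libraries (median 13979.8). Both the lowest and the highest value were Control libraries (1 and 12), and the log2 difference was 0.0022 ± 0.13 (SE; adjusted p = 1.00). Slc16a3 encodes MCT4, the proton-linked exporter of lactate in glycolytic cells. Slc16a3 lay between 13826 and 28324 normalized reads in the Control libraries (median 19377) and between 12286 and 21605 in the LOY libraries (median 14893). The Control libraries 1, 2 and 12 held 3 of the 4 highest values, and the difference was -0.29 ± 0.18 (SE; adjusted p = 0.82). Without Control 1, 2 and 12 it was 0.023, and without Control 17 it was -0.39 (adjusted p = 0.66).

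Several glycolysis genes have near-identical copies to which reads may have been assigned. A search of annotated transcripts found 77 genes at 95% identity or more over at least 300 bases for Gapdh, 31 of them in the table. Their summed reads were 3.65% to 4.10% of those of Gapdh in Control and 3.67% to 4.51% in LOY. The pseudogene Gm6560, a copy of Pkm, averaged 1253 normalized reads in Control and 1313 in LOY. Gm1840, a copy of Gpi1, averaged 624 and 638. Eno1 has 3 listed copies, of which Eno1b averaged 178 and 163. Pgk1 has 4 copies, none with values here, of which Pgk1-rs7 and Gm5537 match it at 100.0% identity over 1255 and 1252 bases. Pgam1 has 1 listed copy, Pgam1-ps2, at 100.0% over 765 bases. The levels of all these members, and the low place of Pgk1 and Pgam1 beside their neighbours, are uncertain, and the reads of listed copies do not bound the reads lost to ambiguity. Exons shared with other genes are a further limit, at 15.3% of the exon bases of Pkm (Gm49759), 13.6% of G6pdx (Ikbkg) and 11.5% of Gpi1 (Gm26762).

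The pentose phosphate pathway was represented by its oxidative branch (G6pdx, Pgls, Pgd) and its carbon-shuffling branch (Rpia, Rpe, Tkt, Taldo1). G6pdx, glucose 6-phosphate dehydrogenase, makes the first NADPH and controls entry. G6pdx lay between 4387 and 7421 normalized reads in the Control libraries (median 5265) and between 5219 and 7742 in the LOY libraries (median 5927). The ranges overlapped and the log2 difference was 0.13 ± 0.15 (SE; adjusted p = 0.88). Pgd, which makes the second NADPH, lay between 14993 and 23657 normalized reads in the Control libraries (median 18016) and between 16211 and 21139.5 in the LOY libraries (median 17661). The difference was -0.0026 ± 0.11 (SE; adjusted p = 1.00), with a 95% interval of -0.24 to 0.24. Pgls, the lactonase between the dehydrogenases, was scarce and scattered from 17.6 in LOY 10 to 679.9 in LOY 4. Its difference was -0.71 ± 0.89 (SE; adjusted p = 0.88), and the 95% interval of -2.64 to 1.22 did not exclude a change of more than 2-fold in either direction. Of the exon bases of Pgls 20.6% are shared with the neighbouring gene Fam129c.

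Taldo1, transaldolase (chr7:141392199-141402968, plus strand), was the most abundant member per length. Taldo1 lay between 50832 and 64758 normalized reads in the Control libraries (median 55144) and between 49716 and 61134 in the LOY libraries (median 53646). The groups overlapped nearly throughout, and the difference was -0.048 ± 0.067 (SE; adjusted p = 0.89) with a 95% interval of -0.19 to 0.10. Tkt, transketolase, lay between 5070.4 and 10403 normalized reads in the Control libraries (median 5868) and between 4408 and 7512 in the LOY libraries (median 5917), with the highest value in Control 1. Its difference was -0.17 ± 0.19 (SE; adjusted p = 0.88). The per-length level of Tkt was 51.7, against 1538 for Taldo1. Rpe, ribulose phosphate epimerase, had 155, 295 and 476 normalized reads (lowest, median, highest) in Control and 76.8, 327 and 537 in LOY, a difference of -0.13 ± 0.48 (SE; adjusted p = 0.96), and 17.9% of its exon bases lie opposite exons of Kansl1l. The library kit does not mark strand, so those reads cannot be told apart. Rpia, ribose 5-phosphate isomerase, was near the limit of detection, with 0 reads in Control 18 (which allows up to 3) and 152 normalized reads in Control 12. Its difference was 0.24 ± 1.09 (SE; adjusted p = 0.97), but the group means ran the other way (43.5 for Control, 24.5 for LOY). In edgeR the difference was -0.81, without Control 1, 2 and 12 it was 2.00, and with each library's percentage of zeros as covariate it was 2.06.

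The genes listed under glycogen fell into 1 very abundant enzyme and 5 sparser ones. Pygl (chr12:70190811-70231488, minus strand) encodes the liver-type glycogen phosphorylase, which releases glucose 1-phosphate, and made up 99.2% of phosphorylase reads per kilobase. Pygl lay between 29393 and 34465 normalized reads in the Control libraries (median 29783) and between 27857 and 33736 in the LOY libraries (median 31542). It had the smallest standard error of all members, and its difference of 0.024 ± 0.060 (SE; adjusted p = 0.94) had a 95% interval of -0.11 to 0.15. Gys1, the muscle-type glycogen synthase that lengthens the chains, had 4.30, 646 and 963 normalized reads (lowest, median, highest) in Control and 306, 380.0 and 647 in LOY. Control 1 held 4.30 and the next lowest Control library 550.4, while the LOY libraries other than LOY 15 all held 448 or less. The limma difference over all libraries was 0.40 ± 1.08 (SE; adjusted p = 0.95), but the group means ran the other way (595 for Control, 422 for LOY). In edgeR the difference over all libraries was -0.48. Without Control 1 the limma difference turned to -0.77 ± 0.23 with an unadjusted p of 0.0059 and an adjusted p of 0.79. Without Control 1, 2 and 12 it was -0.73 ± 0.25 (adjusted p = 0.93). Leaving out Control 1 alone therefore turned the direction of Gys1 in the limma fit. Gbe1, the branching enzyme, had 371, 593 and 1061 normalized reads (lowest, median, highest) in Control and 98.1, 499.5 and 698 in LOY, and the difference was -0.71 ± 0.46 (SE; adjusted p = 0.83). Ugp2, which makes the UDP-glucose that the synthase uses, lay between 1515 and 3547 normalized reads in the Control libraries (median 2774) and between 2197 and 2665 in the LOY libraries (median 2411). The difference was -0.071 ± 0.19 (SE; adjusted p = 0.95).

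The symbols of the phosphoglucomutases in the table are the reverse of those in the current annotation. The row named Pgm1 (ENSMUSG00000029171, chr5:64092950-64128351, plus strand) is Pgm2 in GENCODE vM21 and RefSeq, an enzyme that acts mainly on pentose phosphates. This row was nevertheless kept in the glycogen list and in every glycogen median given here. The row named Pgm2 (ENSMUSG00000025791, chr4:99929414-99987294, plus strand) is Pgm1 there, the enzyme that joins glycogen to glycolysis by turning glucose 1-phosphate into glucose 6-phosphate. The row named Pgm1 had 3.23, 859 and 1306 normalized reads (lowest, median, highest) in Control and 436, 935 and 1501 in LOY. Control 1 was at 3.23 and every other library was at 436 or more. The difference was 1.16 ± 1.20 (SE; adjusted p = 0.86) over all libraries and -0.14 without Control 1. The row named Pgm2, the glycogen enzyme, had 205, 267 and 1445 normalized reads (lowest, median, highest) in Control and 192, 454 and 622 in LOY. Control 2 alone exceeded 622 normalized reads, and the difference was 0.19 ± 0.47 (SE; adjusted p = 0.94), or 0.41 without Control 1, 2 and 12. Of its exon bases 13.6% lie opposite exons of Itgb3bp.

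**Figure D4:**
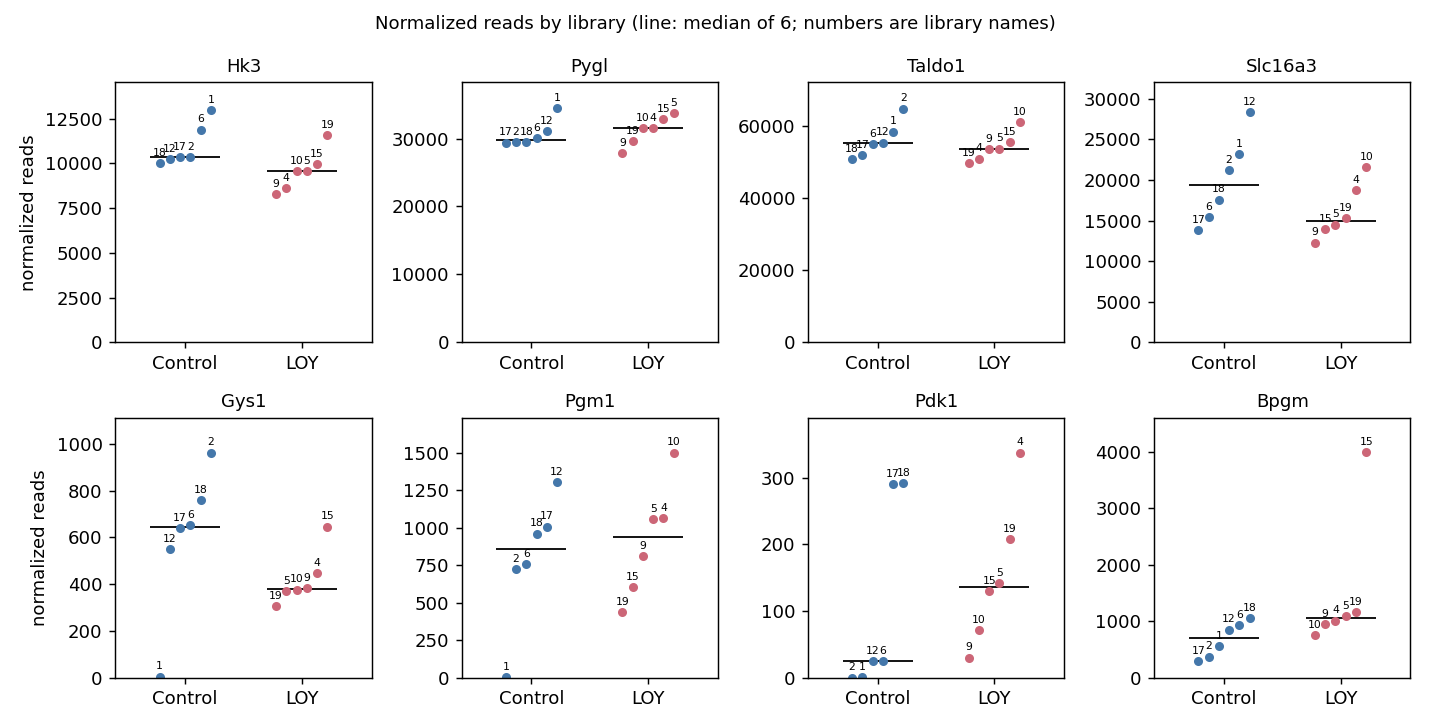
Normalized reads (y axis) in each library, by group, for 7 of the 36 genes and for Bpgm; lines are the median of 6 and numbers are library names. Pygl and Taldo1 vary little, LOY 19 separates from the other LOY libraries for Hk3, Control 1 is near 0 for Gys1 and Pgm1, and LOY 15 is far above all others for Bpgm.

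The hypoxia response genes were read beside the enzymes because HIF-1 acts on both. Hif1a encodes the oxygen-regulated subunit of HIF-1, Egln3 a prolyl hydroxylase that marks it for destruction, Bnip3 a mitophagy receptor, and Pdk1 a kinase that shuts pyruvate dehydrogenase. HIF-1 binds the short motif ACGTG or GCGTG. To show where these letters lie upstream of the 4 genes and of Ldha, a classic HIF-1 target, the 250 bases before the RefSeq start (build GRCm38.p6) are printed 5′ to 3′ along the gene, with matches on either strand in capitals. Of Pdk1 and Ldha, which have 2 starts each in that table, the first is shown.
Hif1a, chr12:73907617-73907866, plus strand: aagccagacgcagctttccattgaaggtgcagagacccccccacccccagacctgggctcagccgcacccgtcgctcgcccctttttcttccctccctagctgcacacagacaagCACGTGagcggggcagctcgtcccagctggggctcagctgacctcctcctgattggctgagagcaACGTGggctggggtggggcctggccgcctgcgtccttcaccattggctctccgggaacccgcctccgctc
Egln3, chr12:54203875-54204124, minus strand: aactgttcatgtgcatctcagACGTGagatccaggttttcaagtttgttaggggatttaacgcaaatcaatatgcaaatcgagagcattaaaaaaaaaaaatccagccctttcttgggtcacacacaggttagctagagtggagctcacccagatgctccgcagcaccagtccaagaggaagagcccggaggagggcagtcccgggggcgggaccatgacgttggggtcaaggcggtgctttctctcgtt
Bnip3, chr7:138909507-138909756, minus strand: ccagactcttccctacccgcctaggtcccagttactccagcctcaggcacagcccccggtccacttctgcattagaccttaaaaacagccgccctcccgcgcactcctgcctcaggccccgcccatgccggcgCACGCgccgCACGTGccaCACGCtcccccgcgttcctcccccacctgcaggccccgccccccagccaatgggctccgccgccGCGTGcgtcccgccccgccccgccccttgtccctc
Pdk1, chr2:71872974-71873223, plus strand: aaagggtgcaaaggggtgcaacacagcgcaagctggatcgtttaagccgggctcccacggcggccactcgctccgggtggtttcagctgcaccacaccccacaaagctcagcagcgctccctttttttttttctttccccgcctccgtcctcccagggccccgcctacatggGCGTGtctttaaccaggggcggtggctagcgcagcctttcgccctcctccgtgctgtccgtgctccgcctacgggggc
Ldha, chr7:46845554-46845803, plus strand: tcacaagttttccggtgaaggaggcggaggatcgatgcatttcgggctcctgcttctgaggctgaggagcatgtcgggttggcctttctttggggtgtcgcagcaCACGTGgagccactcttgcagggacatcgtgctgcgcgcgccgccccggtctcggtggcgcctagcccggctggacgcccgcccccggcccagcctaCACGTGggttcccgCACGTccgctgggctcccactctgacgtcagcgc
The palindrome CACGTG, which is also the E-box bound by other factors such as MYC and USF, matches on both strands and occurs upstream of Hif1a, Bnip3 and Ldha. A match on the minus strand reads CACGT or CACGC here. A promoter entry was matched for 35 of the 36 members, all but Slc2a3. Of the 46 windows of these members 35 (76.1%) held at least 1 match, against 56.3% of the 8819 windows of tested genes and 38.6% of all 32851 windows of the same length. A match is a run of letters and not a measured binding site.

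None of the hypoxia response members passed the test between the groups. Hif1a lay between 1677 and 4152 normalized reads in the Control libraries (median 3003) and between 483 and 3807 in the LOY libraries (median 3200.3). LOY 9 (483) and LOY 10 (1345) were the lowest of the 12, and the other LOY libraries lay within the Control range. The difference was -0.45 ± 0.48 (SE; adjusted p = 0.87). Egln3 had 648, 1289 and 1801 normalized reads (lowest, median, highest) in Control and 583, 1163 and 2063 in LOY, a difference of -0.035 ± 0.30 (SE; adjusted p = 0.98). Bnip3 lay between 987 and 2526 normalized reads in the Control libraries (median 2248) and between 1913 and 2741 in the LOY libraries (median 2349.8), where Control 1 was the only library below 1913. Its difference was 0.19 ± 0.21 (SE; adjusted p = 0.88), and 22.3% of its exon bases lie opposite the antisense gene Gm45507.

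Pdk1 had the largest estimate and the largest standard error of any member. Control 2 held 0 reads (which allows up to 3), Control 1 held 1.08, Control 6 and 12 held 25.2 and 24.7, and Control 17 and 18 held 290.3 and 292 normalized reads. The LOY libraries held 30.0 to 338 (median 136). All of them lay above Control 1, 2, 6 and 12, and their range included Control 17 and 18. The log2 difference was 2.43 ± 1.40 (SE; adjusted p = 0.82). In edgeR it was 0.56, the authors' deposited table gives 0.54, and without Control 1, 2 and 12 it was -0.12. Leaving out Control 17 or Control 18 alone raised it to 3.18, with adjusted p-values of 0.64 and 0.64. Among the pyruvate dehydrogenase kinases Pdk3 held 76.5% of reads per kilobase and Pdk1 11.3%.

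The members did not move as a block, but single libraries recurred at the extremes. LOY 19 was the lowest of the 12 libraries for 9 members and Control 1 for 7, and Control 1 was the highest for 9 and LOY 10 for 8. When Control 1, 2 and 12 were left out, the estimate changed sign for 19 of the 36 members. In that fit the median log2 difference was 0.11 for glycolysis, 0.079 for pentose phosphate, -0.11 for glycogen and -0.19 for hypoxia response genes, beside -0.011 over all genes. Over all libraries the medians were -0.035, -0.048, 0.11 and 0.075. At an unadjusted p under 0.05 the fit without the 3 libraries held 3 members, Slc2a3 at 0.21, Tpi1 at 0.40 and Gys1 at -0.73, each with an adjusted p of 0.93.

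The other genes of these pathways were also not called. Of 25 other glycolysis and lactate genes 13 were listed and 8 tested, and 0 were called in either direction. Bsg, the chaperone of the lactate exporters, lay between 1152 and 1759 normalized reads in the Control libraries (median 1494) and between 1667 and 2311 in the LOY libraries (median 1919). Its difference was 0.41 ± 0.14 (SE; adjusted p = 0.76). Slc2a6 had the highest per-length level of this list (196) and gave -0.043 ± 0.15 (SE; adjusted p = 0.96). Pgam2, the muscle phosphoglycerate mutase, had 0, 11.8 and 111 normalized reads (lowest, median, highest) in Control and 16.4, 60.2 and 107 in LOY, a difference of 2.09 ± 1.03 (SE; adjusted p = 0.81), or 1.03 without Control 1, 2 and 12. Bpgm, which makes the 2,3-bisphosphoglycerate that tunes haemoglobin in red cells, lay between 294 and 1050.4 normalized reads in the Control libraries (median 706) and between 759.6 and 3997 in the LOY libraries (median 1053). LOY 15 alone held the highest value, the next being 1161 in LOY 19, and the difference was 1.03 ± 0.43 (SE; adjusted p = 0.81). Erythroid markers were high in the same library: the 11 listed of 16 summed to 38246 per 1000000 normalized reads in LOY 15, 5944 to 11151 in the other LOY libraries and 4306 to 8996 in Control. None of the 11 was at 0 in every library, the defining globin gene Hba-a1 reached 244166 normalized reads in LOY 15, and the part of red cell RNA in the result was not tested. Without LOY 15 the difference of Bpgm was 0.69 ± 0.34 (adjusted p = 0.91).

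Of 14 genes for the entry of pyruvate into mitochondria 11 were listed, 10 were tested and 0 were called. Mpc1, a subunit of the mitochondrial pyruvate carrier, was the most abundant per length (93.6) and gave -0.090 ± 0.078 (SE; adjusted p = 0.85). Dlat, the acetyltransferase of pyruvate dehydrogenase, had 72.7, 301 and 454 normalized reads (lowest, median, highest) in Control and 38.9, 102 and 163 in LOY, a difference of -1.39 ± 0.56 (SE; adjusted p = 0.79). Pdk3 gave 0.98 ± 0.49 (SE; adjusted p = 0.81) and Pdha1, the catalytic subunit, gave 0.22 ± 0.44 (SE; adjusted p = 0.93). Pdha1 turned to -0.33 without Control 1, 2 and 12. Of 10 other pentose phosphate genes 9 were listed, 6 were tested and 0 were called. Rbks, ribokinase, gave -1.35 ± 0.72 (SE; adjusted p = 0.81) and Idnk, gluconokinase, gave -0.24 ± 0.25 (SE; adjusted p = 0.87). Prpsap1 and Prpsap2, the regulatory partners of phosphoribosyl pyrophosphate synthase, gave -0.72 ± 1.64 (SE; adjusted p = 0.94) and 1.18 ± 1.21 (SE; adjusted p = 0.86). Control 1 and 2 held only 8.60 and 1.28 normalized reads of Prpsap2. When these 2 and Control 12 were left out, Prpsap2 turned to -0.81 and Prpsap1 was -2.31, and in edgeR Prpsap2 was 0.079.

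Of 30 other glycogen and glucose 6-phosphate genes 19 were listed, 18 were tested and 0 were called. Slc37a2, a sugar phosphate exchanger of the endoplasmic reticulum, lay between 586 and 1633 normalized reads in the Control libraries (median 1160.0) and between 374 and 1046 in the LOY libraries (median 560.5), a difference of -0.89 ± 0.28 (SE; adjusted p = 0.68). Pygm, the muscle phosphorylase, gave 2.45 ± 1.60 (SE; adjusted p = 0.83), or 1.42 without Control 1, 2 and 12. Of 24 other hypoxia response genes 17 were listed and tested, and 0 were called. Ndrg1, a hypoxia-induced gene, lay between 1595 and 2016 normalized reads in the Control libraries (median 1745) and between 1064 and 1706 in the LOY libraries (median 1318). Its difference was -0.41 ± 0.13 (SE; adjusted p = 0.64). Bnip3l, a mitophagy receptor that red cell precursors use to clear mitochondria, lay between 3246 and 5396 normalized reads in the Control libraries (median 4459.9) and between 4683 and 6183 in the LOY libraries (median 5409.9), a difference of 0.34 ± 0.12 (SE; adjusted p = 0.76). The erythroid sums given for Bpgm apply beside it, and without LOY 15 the difference was 0.31 ± 0.13 (adjusted p = 0.91). It was 0.18 without Control 1, 2 and 12. Vhl, which tags HIF-1 for degradation, had 3.84, 431 and 665 normalized reads (lowest, median, highest) in Control and 597, 691 and 829.6 in LOY, a difference of 2.15 ± 1.04 (SE; adjusted p = 0.81). Control 2 held 3.84 and Control 1 held 52.7. The difference was 0.51 without Control 1, 2 and 12, with the percentage of zeros as covariate -0.092, and in edgeR 1.02. Mif, a cytokine gene with the second-highest level of the list per length, gave -0.24 ± 0.33 (SE; adjusted p = 0.89), or -0.015 without Control 1, 2 and 12.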

How the data were processed

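RNA of sorted blood neutrophils was amplified by the SMART-Seq v4 kit and fragmented with Nextera XT, per the labels' protocols. Demultiplexing by bcl2fastq 2.17, trimming by Trimmomatic 0.36, alignment by STAR 2.5.2b and counting by featureCounts of Subread 1.5.2 rest on the tool names in the submitters' processing notes, which also name GRCm38 and mm10. The authors deposited a normalized signal per gene and library without naming its unit. In each library 100.0% of values above 0 were whole multiples of 1 step (tolerance 0.02 reads), that is, read counts divided by a size factor per library. The same deposited table holds the authors' log2 fold changes and p-values. The sources used do not name their tool, but for the members they equal those of DESeq2 on the recovered reads. Dividing by the step recovered the reads. Genes had to reach a value of 10 in at least 6 libraries. The main test was limma 3.58.1 (trend and robust) on log2(value + 1) in R 4.3.3, with Benjamini-Hochberg adjustment at 0.05. It was also run on simulated counts. These held no libraries rich in zeros such as Control 1, 2 and 12, so that run cannot speak for the test on these data. The alternatives were edgeR 4.0.16 and DESeq2 1.42.0 on recovered reads, quantile or TMM normalization, pseudocounts of 0.5 and 5, no filter or a mean of 50, the percentage of zeros as covariate, and fits without single libraries or without Control 1, 2 and 12. Lengths and coordinates are from GENCODE vM21, promoters from RefSeq, and copies from blastn 2.17.0. The reads of every pair of libraries in a group differed by more than sampling noise (lowest chi-square per degree of freedom 66.9 over 30 pairs). The 36 members and the lists were chosen with earlier results of these data known. The text names all members, up to 3 tested genes with the smallest p and the 2 of highest per-length level from each pathway list, and at most the 2 of highest mean from each marker list; some genes that this rule would name are not reported here. The search for copies and its limits, the motif, the 5 printed promoters and the isozyme families beyond hexokinases, glucose transporters, phosphofructokinases and 6-phosphofructo-2-kinases were chosen after the files were seen.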

Additional observations from a re-analysis of the deposited data

Results flagged for a closer look

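Single libraries far from the other 5 of their group were looked for in each member and group by Dixon's gap test at the 95% level. Of 72 groups tested 4 held such a library, and chance gives about 1 in 20. Bnip3 was low in Control 1, at 987 normalized reads, where the next lowest Control library had 2159. Pygl was high in Control 1, at 34465 against 31079.8 in the next highest. Rpia was high in Control 12, at 152 against 46.1. The row named Pgm2, the glycogen phosphoglucomutase, was high in Control 2, at 1445 against 419. All 4 fell in Control 1, 2 or 12, the libraries with the most genes at 0.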

How the results depend on the processing

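The count of members called was 0 under every alternative run. The sign of a member's log2 fold change was less stable: of 791 values 120 had the other sign, in 28 members, and none of these was called. The member values that follow have the other sign, the list medians moved by more than the spread of the LOY libraries, and the cause was not tested. No paired analysis was possible because the Control and LOY libraries share no replicate number. At an unadjusted p under 0.05 there were 3 members without Control 1, 2 and 12 and 0 to 2 when 1 library was left out. The count of all genes called was 54 in DESeq2, 0 in edgeR, 0 with quantile normalization, 0 among genes with a mean of 50 or more, 0 with each library's percentage of zeros as covariate, 0 without Control 1, 2 and 12, and 0 to 17 when 1 library was left out. With the longest transcript as length, Hk3 made up 86.7% of hexokinases.
Log2 fold changes in DESeq2 were Pfkp -0.074, Ldha -0.021, Egln3 0.00045, Rpia -0.83, Rpe 0.029, Gys1 -0.50, Pgm2 -0.12, and the glycogen median was -0.12. In edgeR they were Pfkp -0.058, Gapdh 0.0041, Eno1 0.011, Ldha -0.0042, Egln3 0.021, Pgd 0.00054, Rpia -0.81, Rpe 0.045, Gys1 -0.48, Pgm2 -0.11, and the glycogen median was -0.11. With TMM factors the value was Pgd 0.011, and with a pseudocount of 5 it was Rpia -0.077. Quantile normalization gave Pfkl 0.0040, Pgam1 0.033, Egln3 0.012, Pgd 0.0099, Rpia -1.001, Gys1 -0.0045, and a glycogen median of 0.00033. With the percentage of zeros as covariate the values were Hk1 0.27, Gpi1 0.065, Pfkl 0.017, Pfkp -0.12, Pfkfb3 0.12, Pfkfb4 -0.079, Aldoa 0.061, Gapdh 0.20, Pgk1 0.57, Pgam1 0.17, Eno1 0.041, Ldha -0.028, Slc16a3 0.021, Pdk1 -0.63, Bnip3 -0.045, Pgd 0.054, Taldo1 0.076, Rpe 0.087, Gys1 -0.89, Pgm1 -0.39, and the medians were glycolysis 0.065 (other sign, within that spread), hypoxia response -0.39, pentose phosphate 0.076, glycogen -0.30. Without Control 1, 2 and 12 they were Hk1 0.18, Gpi1 0.019, Pfkl 0.11, Pfkfb3 0.12, Pfkfb4 -0.053, Aldoa 0.062, Gapdh 0.17, Pgk1 0.44, Pgam1 0.13, Eno1 0.036, Ldha -0.00070, Slc16a3 0.023, Pdk1 -0.12, Pgd 0.079, Tkt 0.041, Taldo1 0.040, Rpe 0.27, Gys1 -0.73, Pgm1 -0.10, and the medians were glycolysis 0.11, hypoxia response -0.19, pentose phosphate 0.079, glycogen -0.11. Leaving out 1 library at a time gave the ranges Hk1 -0.16 to 0.045, Hk2 -0.38 to 0.18, Gpi1 -0.10 to 0.026, Pfkl -0.16 to 0.15, Pfkp -0.20 to 0.20, Pfkfb4 -0.028 to 0.10, Tpi1 -0.031 to 0.18, Gapdh -0.10 to 0.053, Pgk1 -0.34 to 0.10, Pgam1 -0.11 to 0.0078, Eno1 -0.075 to 0.046, Pkm -0.024 to 0.087, Ldha -0.090 to 0.087, Egln3 -0.21 to 0.17, Bnip3 -0.019 to 0.25, Pgd -0.054 to 0.078, Rpia -0.60 to 0.85, Rpe -0.32 to 0.24, Gys1 -0.77 to 0.73, Pgm1 -0.14 to 1.52, Ugp2 -0.22 to 0.023. The medians ranged over hypoxia response -0.12 to 0.20, glycogen -0.058 to 0.30.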
